A study of Mus musculus and Homo sapiens with 15 samples.

Results

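The cadherin and protocadherin genes whose symbols are Cdh or Pcdh followed by a number were examined in the mouse brain libraries of an INSCRIBE experiment. A gene was a member if its symbol stood in the label of at least 1 edit cluster in at least 1 of the 9 brain libraries. This gave 29 genes (18 Cdh and 11 Pcdh genes) of 20838 genes named in cluster labels, and 28 of the 29 had clusters in all 9 libraries. Of the 35 symbols of this form in the GENCODE vM21 annotation, the other 6 (Cdh3, Cdh16, Cdh17, Cdh23, Cdh26 and Pcdh12) had no cluster. The clustered protocadherins have symbols of another form and were not members.

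In INSCRIBE, an antibody bound in fixed tissue is met by a nanobody joined to APOBEC1, an enzyme that deaminates cytidines in RNA, and the cytidines it changes near the antibody's target are read as T after sequencing. The antibody recognised RBFOX2, which regulates splicing and prefers UGCAUG in RNA (TGCATG in DNA letters). The libraries came from paraformaldehyde-fixed brain sections of wild-type female C57BL/6J mice aged 2 months, in 3 groups of 3: RBFOX2-INSCRIBE (antibody and enzyme), enzyme-only (enzyme without antibody) and buffer-only (neither). All 3 groups share genotype, sex, age and fixation. A replicate was 1 coronal slice and no more than 2 mice were used, so p-values measure the spread between slices, which may be technical.

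Classical cadherins are single-pass membrane proteins that bind the same or a similar cadherin on the neighbouring cell in a calcium-dependent way and are tied to actin through catenins. Type I and type II cadherins differ in the residues of the outermost extracellular repeat, and different brain nuclei and cortical layers are known to carry different type II cadherins. Delta protocadherins have more of these repeats and other cytoplasmic tails, and act in axon growth, cell sorting and synapse formation. Many of these genes are very long, and most of their length is intron.

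The edited bases of a gene were the read bases in its clusters at which a C was read as T. Over all clusters, the edited bases of a library numbered 275909 to 319505 with antibody and enzyme, 251680 to 273119 with enzyme alone and 184343 to 248657 with buffer. Totals of sequenced reads for each library are not given in the sources used here. The label of Cdh15 was at odds with its position. Of 1662 clusters labelled Cdh15 (a type I cadherin of muscle and cerebellum), 5 lay in the annotated gene (chromosome 8, 122847966 to 122867397, mm10). The others carried a label shared by up to 91 genes and were spread over 4432 kb, so values under this label are not those of Cdh15 and are left out where stated. For the other 28 members, 100% of clusters lay in the annotated gene body. Shared labels were not confined to Cdh15: the median label held 5 entries for Pcdh9, 15 for Pcdh7 and 8 for Cdh12. Over all genes, 32.6% to 39.1% of a library's clusters had a label with several entries. Such a cluster was counted once for each gene named, so different genes can hold the same edited bases.

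Without Cdh15 the members held 0.719%, 0.740% and 0.673% of all edited bases in the RBFOX2-INSCRIBE libraries, 0.665%, 0.747% and 0.762% in enzyme-only and 0.704%, 0.691% and 0.700% in buffer-only. The groups overlapped, and no difference between RBFOX2-INSCRIBE and enzyme-only was detected (exact two-sided permutation test of 3 against 3 libraries, p = 0.7, where 0.1 is the smallest p that this design allows). Clusters were small: the share with a single edited base was 80.4% to 81.8% for RBFOX2-INSCRIBE libraries, 78.9% to 80.3% for enzyme-only libraries and 84.8% to 86.6% for buffer-only libraries. Their median read depth was 86.8 to 111 for RBFOX2-INSCRIBE libraries, 88.6 to 112 for enzyme-only libraries and 77.5 to 114 for buffer-only libraries.

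Pcdh9, a delta-1 protocadherin (chromosome 14, 93013410 to 93890679, minus strand), held the most edited bases of the members. It had 880, 872 and 789 edited bases in the RBFOX2-INSCRIBE libraries, 727, 875 and 826 in enzyme-only and 661, 493 and 525 in buffer-only, which was 36.9% to 43.1% of the members' total without Cdh15. The Pcdh9 counts were lowest in the buffer-only libraries, which also held fewer edited bases in all. Its level was also high per length: 8.42 edited bases per 10 kb of gene body a library, against 8.29 for Pcdh1, 5.63 for Cdh11, 4.36 for Cdh2, 4.28 for Pcdh7 and 1.28 for Cdh12. Per length the short genes Pcdh8 (25.7) and Pcdh20 (12.7), which are mostly exon, stood higher still.

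The remaining large contributors were Pcdh7, another delta-1 protocadherin, with 251, 277 and 176 edited bases in RBFOX2-INSCRIBE, 162, 176 and 159 in enzyme-only and 164, 126 and 108 in buffer-only, and a group of cadherins. The type II cadherin Cdh12 had 170, 208 and 129 edited bases in RBFOX2-INSCRIBE, 119, 130 and 136 in enzyme-only and 165, 105 and 152 in buffer-only. Cdh2 (N-cadherin, the type I cadherin of neural progenitors and synapses) had 116, 139 and 110 in RBFOX2-INSCRIBE, 86, 102 and 97 in enzyme-only and 95, 66 and 53 in buffer-only. Before any scaling for library size, the counts of Cdh2 in RBFOX2-INSCRIBE lay above those of both other groups, and those of Pcdh7 did so but for 1 tie with enzyme-only.

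The other type II cadherins had fewer. Cdh11, found in mesenchyme and neurons, had 107, 105 and 89 edited bases in RBFOX2-INSCRIBE, 69, 106 and 90 in enzyme-only and 84, 83 and 45 in buffer-only. Cdh18 had 93, 142 and 82 in RBFOX2-INSCRIBE, 59, 74 and 84 in enzyme-only and 82, 80 and 52 in buffer-only. Cdh10 had 117, 98 and 80 in RBFOX2-INSCRIBE, 79, 77 and 83 in enzyme-only and 78, 44 and 50 in buffer-only. These 3 overlapped between RBFOX2-INSCRIBE and enzyme-only. Cdh8 had 35, 35 and 34 in RBFOX2-INSCRIBE, 24, 32 and 37 in enzyme-only and 25, 13 and 18 in buffer-only. Cdh6 had 30, 39 and 27 in RBFOX2-INSCRIBE, 31, 42 and 28 in enzyme-only and 33, 21 and 15 in buffer-only. Cdh20 had 36, 29 and 18 in RBFOX2-INSCRIBE, 33, 33 and 28 in enzyme-only and 23, 21 and 12 in buffer-only. Cdh9, which acts at hippocampal synapses, was lower still, with 26, 23 and 15 in RBFOX2-INSCRIBE, 10, 25 and 16 in enzyme-only and 8, 22 and 8 in buffer-only.

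Cdh13, which is held to the membrane by a lipid anchor and has no cytoplasmic tail, had 58, 66 and 47 edited bases in RBFOX2-INSCRIBE, 45, 52 and 50 in enzyme-only and 57, 36 and 44 in buffer-only. Cdh4, of type I, had 29, 23 and 14 in RBFOX2-INSCRIBE, 23, 19 and 23 in enzyme-only and 21, 17 and 13 in buffer-only. The label Cdh15 had 299, 290 and 217 in RBFOX2-INSCRIBE, 197, 261 and 184 in enzyme-only and 240, 146 and 138 in buffer-only. All 3 overlapped between RBFOX2-INSCRIBE and enzyme-only. Among protocadherins, Pcdh10 had 48, 38 and 28 in RBFOX2-INSCRIBE, 33, 51 and 32 in enzyme-only and 26, 16 and 19 in buffer-only. Pcdh1 had 32, 14 and 21 in RBFOX2-INSCRIBE, 29, 13 and 20 in enzyme-only and 22 in each buffer-only library. Pcdh11x, on the X chromosome, had 30, 15 and 15 in RBFOX2-INSCRIBE, 18, 11 and 17 in enzyme-only and 18, 10 and 10 in buffer-only. For Pcdh1 and Pcdh11x the first RBFOX2-INSCRIBE library was the highest of the 3.

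The 3 lowest members were Cdh1 (E-cadherin of epithelia), with 1 edited base in all, Pcdh18 with 29 and Cdh5 (VE-cadherin of endothelium) with 43. Over the 28 genes, edited bases followed the length of the gene body with a Spearman rho of 0.69, given as a description over genes that share the same libraries.

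**Figure D1:**
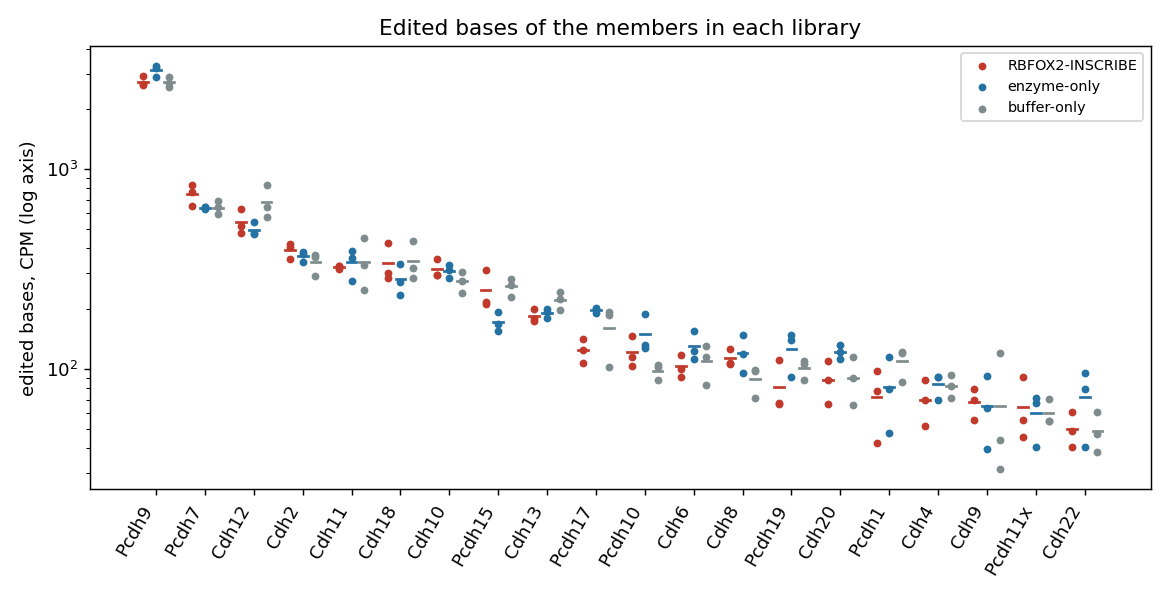
Edited bases as CPM (log axis) of the 20 members with the most edited bases, without Cdh15. Points are libraries and short lines are means of 3, for RBFOX2-INSCRIBE, enzyme-only and buffer-only from left to right within each gene. Pcdh9 stands above all other members in every library, and the 3 groups overlap for most genes.

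Levels are given from here as CPM, a gene's edited bases per 1000000 edited bases of the library after scaling with TMM factors, and were tested with edgeR (quasi-likelihood test, Benjamini-Hochberg adjustment over all genes tested, called at an adjusted p under 0.05). The 3 comparisons share their groups, so their changes are not independent of each other. In such tissue libraries fewer cells of a type and less RNA or less editing per cell cannot be told apart. Of the members, 23 passed the filter on low counts, and Cdh1, Cdh5, Cdh7, Cdh19, Cdh24 and Pcdh18 did not.

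The first comparison asked whether the antibody directed a larger share of the editing to these transcripts. In RBFOX2-INSCRIBE against enzyme-only, none of the 23 members was called, with 3 at an unadjusted p under 0.05; over all 9509 genes tested, 1.67% were called (138 higher and 21 lower) and 13.3% had an unadjusted p under 0.05. The median log2 change of the 22 tested members without Cdh15 was -0.06, beside -0.02 over all genes. Without Cdh15, 10 members had a positive and 12 a negative log2 change, between -0.68 and 0.53. The CPM of the groups did not overlap for 4 members, with Pcdh7 and Pcdh15 higher and Pcdh17 and Cdh20 lower in RBFOX2-INSCRIBE, beside 9.26% of all genes higher and 8.23% lower without overlap. DESeq2's Wald test called 0 of the 20 members to which it gave an adjusted p, with 2 members at an unadjusted p under 0.05.

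The delta-2 protocadherins Pcdh17, Pcdh19 and Pcdh10 had negative values. Pcdh17, known from synapses of corticobasal ganglia circuits, averaged 123 ± 16.9 CPM in RBFOX2-INSCRIBE and 197 ± 6.2 CPM in enzyme-only (SD, n = 3 each), a log2 change of -0.68 ± 0.22 (SE) that was not called (edgeR adjusted p = 0.113). Its edited bases were 35, 41 and 38 in RBFOX2-INSCRIBE, 48, 54 and 51 in enzyme-only and 26, 34 and 35 in buffer-only, so every enzyme-only library lay above every RBFOX2-INSCRIBE library. Pcdh19, an X-linked gene mutated in an epilepsy of girls, averaged 81.3 ± 25.4 CPM in RBFOX2-INSCRIBE and 126 ± 30.3 CPM in enzyme-only, with a log2 change of -0.65 ± 0.27 (adjusted p = 0.256). Its edited bases were 22, 22 and 30 in RBFOX2-INSCRIBE, 23, 38 and 37 in enzyme-only and 27, 20 and 16 in buffer-only, and the groups overlapped. Pcdh10 had a log2 change of -0.29 ± 0.24 and Pcdh8 of 0.02 ± 0.41. Summed over the 5 delta-2 genes the level was 383 ± 28.5 CPM in RBFOX2-INSCRIBE, 523 ± 61.0 CPM in enzyme-only and 424 ± 42.5 CPM in buffer-only.

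Pcdh15, best known from the tip links of inner ear hair cells and expressed in oligodendrocyte precursors, had the largest positive value. It averaged 247 ± 58.1 CPM in RBFOX2-INSCRIBE and 171 ± 18.7 CPM in enzyme-only, a log2 change of 0.53 ± 0.20 (adjusted p = 0.187). Its 71, 104 and 57 edited bases in RBFOX2-INSCRIBE stood against 42, 52 and 39 in enzyme-only, but buffer-only had 72, 42 and 48 in smaller libraries, and its CPM there was 258 ± 26.6. The higher value in RBFOX2-INSCRIBE was thus relative to enzyme-only and not to buffer-only, where the log2 change was -0.07 ± 0.19 (adjusted p = 0.913).

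Among delta-1 protocadherins, Pcdh9 averaged 2740 ± 151 CPM in RBFOX2-INSCRIBE and 3128 ± 214 CPM in enzyme-only (log2 change -0.19 ± 0.10, adjusted p = 0.387), and Pcdh7 averaged 750 ± 93.8 CPM in RBFOX2-INSCRIBE and 641 ± 8.60 CPM in enzyme-only (log2 change 0.23 ± 0.13, adjusted p = 0.426). Pcdh1 (log2 change -0.15 ± 0.32), Pcdh11x (0.11 ± 0.35) and Pcdh20 of the other protocadherins (0.11 ± 0.49) had wide errors. The type I cadherins Cdh2 (0.09 ± 0.15) and Cdh4 (-0.25 ± 0.31, R-cadherin) and the lipid-anchored Cdh13 (-0.05 ± 0.20, T-cadherin) had log2 changes within 1 SE of 0. Among type II cadherins Cdh18 had the highest log2 change (0.28 ± 0.17) and Cdh22 the lowest (-0.50 ± 0.36). Cdh12 (0.13 ± 0.14), Cdh10 (0.04 ± 0.16), Cdh11 (-0.08 ± 0.17), Cdh8 (-0.10 ± 0.25), Cdh9 (0.06 ± 0.35), Cdh6 (-0.33 ± 0.25) and Cdh20 (-0.45 ± 0.27) lay between them.

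**Figure D2:**
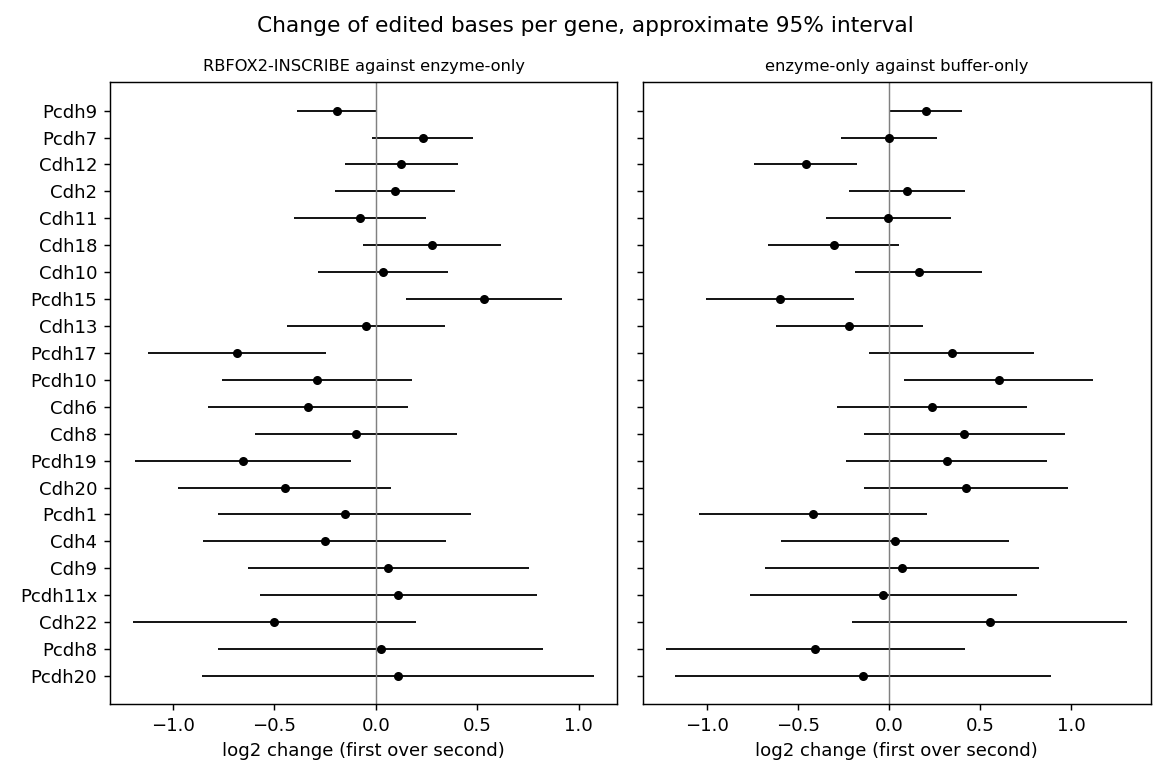
Log2 change of edited bases for the 22 tested members without Cdh15, in RBFOX2-INSCRIBE against enzyme-only (left) and enzyme-only against buffer-only (right). Points are edgeR estimates and bars are approximate 95% intervals. None of the genes was called in either comparison.

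The second comparison, enzyme-only against buffer-only, asked whether the enzyme without an antibody changed the share of the editing that fell in each gene. Each library was scaled to its own edited bases, so a rise in editing common to all genes could not show in it. Again 0 of 23 members were called by edgeR (4 at an unadjusted p under 0.05), and DESeq2 called 0 of the 8 to which it gave an adjusted p (3 at an unadjusted p under 0.05), beside 0.337% of all genes called and 10.3% with an unadjusted p under 0.05. Cdh12 averaged 497 ± 37.4 CPM in enzyme-only and 685 ± 135 CPM in buffer-only (log2 change -0.46 ± 0.14, adjusted p = 0.125). Pcdh15 had a log2 change of -0.60 ± 0.21 (adjusted p = 0.172), Pcdh10 of 0.60 ± 0.27 (adjusted p = 0.374) and Pcdh9 of 0.20 ± 0.10 (adjusted p = 0.482). The groups did not overlap for Pcdh10, higher in enzyme-only, nor for Cdh12 and Pcdh15, lower in enzyme-only, beside 8.26% of all genes higher and 6.86% lower without overlap. In RBFOX2-INSCRIBE against buffer-only, 0 of 23 members were called by edgeR (1 at an unadjusted p under 0.05) and 0 of 24 by DESeq2 (0 at an unadjusted p under 0.05), beside 1.75% of all genes called by edgeR and 14.5% with an unadjusted p under 0.05. Cdh8 alone had groups that did not overlap, higher in RBFOX2-INSCRIBE, beside 9.02% of all genes higher and 7.33% lower without overlap. The smallest adjusted p was that of Cdh12 (log2 change -0.33 ± 0.14, adjusted p = 0.256).

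The members were edited mostly in introns. Without Cdh15, introns held 83.5%, 87.3% and 83.1% of the members' edited bases in RBFOX2-INSCRIBE, 78.7%, 79.3% and 80.2% in enzyme-only and 85.5%, 83.1% and 84.3% in buffer-only. The lowest RBFOX2-INSCRIBE library exceeded the highest enzyme-only library (difference of means 5.22 percentage points, exact permutation p = 0.1), and every enzyme-only library lay below every buffer-only library (difference -4.91 points, p = 0.1). Over all genes the intron share was 58.3% ± 3.17 in RBFOX2-INSCRIBE, 50.6% ± 1.59 in enzyme-only and 55.3% ± 3.95 in buffer-only (SD, n = 3 each), with the same order of means. The exon part carried the difference on the CPM scale. Exon-labelled edited bases of the members without Cdh15 summed to 1068 ± 142 CPM in RBFOX2-INSCRIBE, 1505 ± 53.0 CPM in enzyme-only and 1106 ± 109 CPM in buffer-only, while intron-labelled ones summed to 5898 ± 283 CPM in RBFOX2-INSCRIBE, 5813 ± 384 CPM in enzyme-only and 5940 ± 69.5 CPM in buffer-only. For exons RBFOX2-INSCRIBE and enzyme-only did not overlap (exact permutation p = 0.1), and for introns they did (p = 0.9).

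Genes differed widely in this share. Among members with at least 20 edited bases a library and without Cdh15, the highest intron shares over the 9 libraries were those of Pcdh9 (98.8%), Cdh12 (92.0%) and Cdh18 (90.8%), and the lowest were those of Pcdh19 (4.68%), Pcdh10 (28.5%) and Cdh6 (33.5%). Pcdh8, Pcdh20, Pcdh18, Cdh5 and Cdh1 had no intron-labelled edited base. Over the 28 genes the intron share followed gene length with a Spearman rho of 0.71, again a description over genes of the same libraries. Within genes, the intron share of Cdh2 was 92.1% in RBFOX2-INSCRIBE, 82.1% in enzyme-only and 90.7% in buffer-only, and that of Cdh13 was 93.6% in RBFOX2-INSCRIBE, 75.5% in enzyme-only and 86.9% in buffer-only, each pooled over 3 libraries. Pcdh9 moved little, with 99.02% in RBFOX2-INSCRIBE, 98.43% in enzyme-only and 98.99% in buffer-only.

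**Figure D3:**
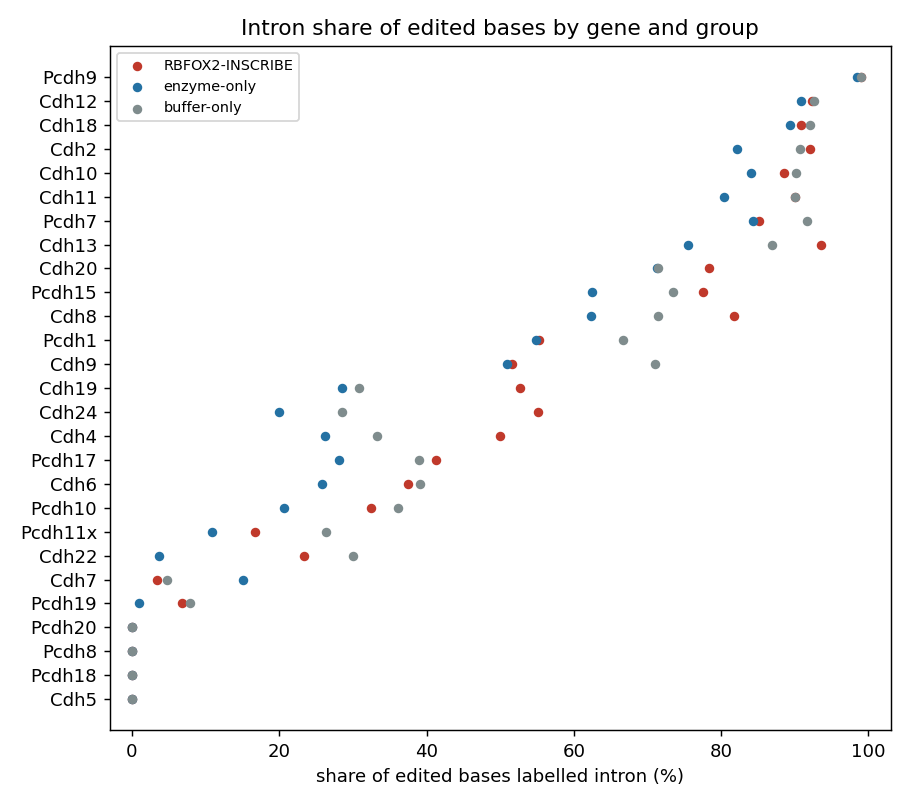
Share of edited bases labelled intron (x axis, %) for each member with at least 1 edited base a library, without Cdh15, pooled over the 3 libraries of each group. Pcdh9, Cdh12 and Cdh18 lie near the right edge in all groups, while Pcdh8, Pcdh20, Pcdh18 and Cdh5 lie at 0.

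Along Pcdh9 the edited bases declined with distance from the gene start. The first 100 kb held 540 ± 96.2 CPM in RBFOX2-INSCRIBE, 742 ± 51.8 CPM in enzyme-only and 553 ± 106 CPM in buffer-only. At 500 to 600 kb the level was 142 ± 13.7 CPM in RBFOX2-INSCRIBE, 118 ± 23.4 CPM in enzyme-only and 126 ± 43.4 CPM in buffer-only. A second rise stood at 600 to 700 kb, with 282 ± 44.5 CPM in RBFOX2-INSCRIBE, 342 ± 34.2 CPM in enzyme-only and 260 ± 42.8 CPM in buffer-only. Median read depth of the clusters fell in the same direction, with 149, 153 and 148 in the first 100 kb and 90.2, 86.9 and 81.9 at 500 to 600 kb in RBFOX2-INSCRIBE, enzyme-only and buffer-only. At the second rise, 600 to 700 kb, the depth was 94.2, 76.9 and 86.5 in the same order of groups. The part of depth in the decline and in the second rise was not tested. The shape was shared by the 3 groups, with enzyme-only highest in the first 400 kb.

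**Figure D4:**
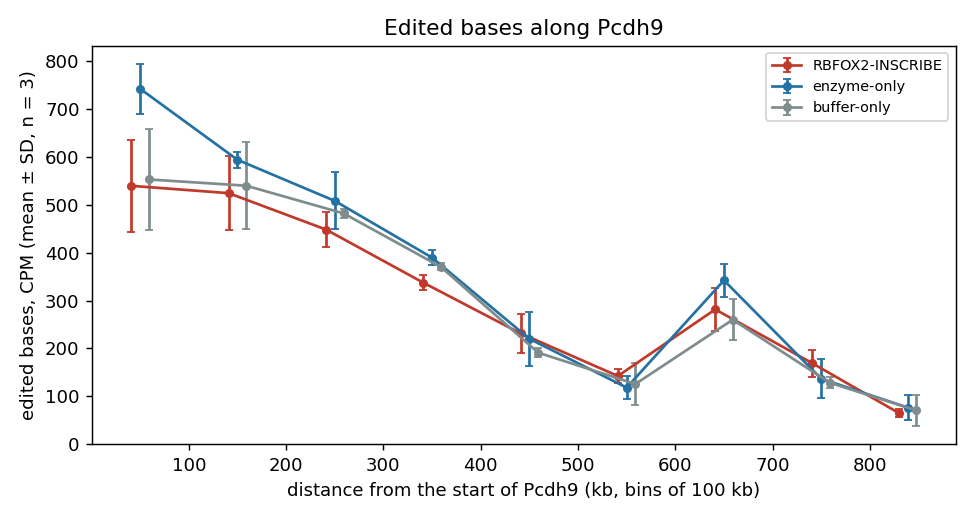
Edited bases (CPM, mean ± SD of 3 libraries) along Pcdh9 in bins of 100 kb from the gene start, for RBFOX2-INSCRIBE, enzyme-only and buffer-only. All 3 groups decline to the bin at 500 to 600 kb and rise again in the next one.

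The edit fraction, edited bases over covered target bases in the clusters, did not separate RBFOX2-INSCRIBE from enzyme-only. Without Cdh15 it was 0.481% ± 0.0324 in RBFOX2-INSCRIBE, 0.475% ± 0.0118 in enzyme-only and 0.420% ± 0.0190 in buffer-only (SD, n = 3 each). RBFOX2-INSCRIBE and enzyme-only overlapped (exact permutation p = 0.9), and both lay above buffer-only in every library (p = 0.1 each). Over all genes the fraction was 0.441% ± 0.0209 in RBFOX2-INSCRIBE, 0.420% ± 0.00838 in enzyme-only and 0.388% ± 0.00408 in buffer-only. There too both groups with enzyme lay above buffer-only in every library (exact permutation p = 0.1 each). For the members, neither separation held for clusters with a score of at least 0.99, a filter added after seeing the data, with Cdh15 kept: the fraction was then 0.854% in RBFOX2-INSCRIBE, 0.806% in enzyme-only and 0.813% in buffer-only, and RBFOX2-INSCRIBE (exact permutation p = 0.7) and enzyme-only (p = 0.9) overlapped buffer-only. Without Pcdh9, with Cdh15 kept, enzyme-only (0.546% ± 0.0135) and buffer-only (0.517% ± 0.0389) overlapped (exact permutation p = 0.4), and RBFOX2-INSCRIBE (0.587% ± 0.0387) overlapped buffer-only (p = 0.2). Intron clusters had higher fractions than exon clusters in each group: 0.553% ± 0.0469 and 0.281% ± 0.0235 in RBFOX2-INSCRIBE, 0.578% ± 0.0218 and 0.281% ± 0.00837 in enzyme-only, and 0.490% ± 0.0190 and 0.239% ± 0.0292 in buffer-only, introns first. The base before the edited C, which is A or U at preferred APOBEC1 sites, followed the enzyme: it was A or U at 72.3%, 67.3% and 70.8% of the members' sites in RBFOX2-INSCRIBE, 67.9%, 69.6% and 71.3% in enzyme-only and 58.3%, 58.0% and 56.4% in buffer-only. Both groups with enzyme lay above buffer-only in every library (exact permutation p = 0.1 each), and they overlapped with each other (p = 0.8). At a score of at least 0.99, with Cdh15 kept, they did not overlap, with 77.7% in RBFOX2-INSCRIBE and 74.6% in enzyme-only (exact permutation p = 0.1). Over all genes, without this score filter, the same share was 64.1% ± 2.28 in RBFOX2-INSCRIBE, 62.2% ± 1.11 in enzyme-only and 52.0% ± 0.395 in buffer-only, lower than in the members in each group.

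The RBFOX motif did separate the groups. Without Cdh15, UGCAUG stood in 43 of 1758, 45 of 1890 and 42 of 1472 member clusters in RBFOX2-INSCRIBE (2.45%, 2.38% and 2.85%), in 24 of 1357, 32 of 1593 and 25 of 1501 in enzyme-only (1.77%, 2.01% and 1.67%) and in 22 of 1519, 17 of 1123 and 18 of 1106 in buffer-only (1.45%, 1.51% and 1.63%). Every RBFOX2-INSCRIBE library lay above every library of the other groups, and the difference from enzyme-only was 0.75 percentage points (exact permutation p = 0.1). Enzyme-only lay above buffer-only by 0.28 points without overlap (exact permutation p = 0.1), but with the label Cdh15 kept these groups overlapped (p = 0.2). Each library's own Wilson 95% interval was wide, for example 1.82% to 3.28% for the first RBFOX2-INSCRIBE library and 1.19% to 2.62% for the first enzyme-only library, and covers counting error alone. Over all clusters the share was 2.54% ± 0.109 in RBFOX2-INSCRIBE, 1.60% ± 0.0314 in enzyme-only and 1.504% ± 0.0426 in buffer-only (SD, n = 3 each). Among member clusters without Cdh15 with a score of at least 0.99, the motif stood in 41 of 767 (5.42% ± 1.44) in RBFOX2-INSCRIBE, 13 of 719 (1.88% ± 0.628) in enzyme-only and 13 of 590 (2.18% ± 0.384) in buffer-only. The share over all clusters at this score is not given here, so whether this gap is particular to the members was not tested.

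By gene, Pcdh9 held 16, 18 and 24 clusters with the motif in RBFOX2-INSCRIBE, 11, 17 and 11 in enzyme-only and 9, 11 and 7 in buffer-only. Pcdh7 held 9, 6 and 3 in RBFOX2-INSCRIBE, 0, 0 and 6 in enzyme-only and 2, 0 and 0 in buffer-only. Cdh2 held 5, 9 and 3 in RBFOX2-INSCRIBE, 3, 6 and 1 in enzyme-only and 1 in each buffer-only library. For each of these 3 genes the range of RBFOX2-INSCRIBE overlapped that of enzyme-only. The numbers of clusters with or without the motif also differed between groups. Pooled over 3 libraries, in the order RBFOX2-INSCRIBE, enzyme-only and buffer-only, they were 1948, 1885 and 1424 for Pcdh9. For Pcdh7 they were 531, 388 and 345, and for Cdh2 278, 226 and 191. Cdh6, Cdh22, Pcdh11x, Pcdh18, Pcdh19, Pcdh20, Cdh1 and Cdh5 had no such cluster in any library.

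**Figure D5:**
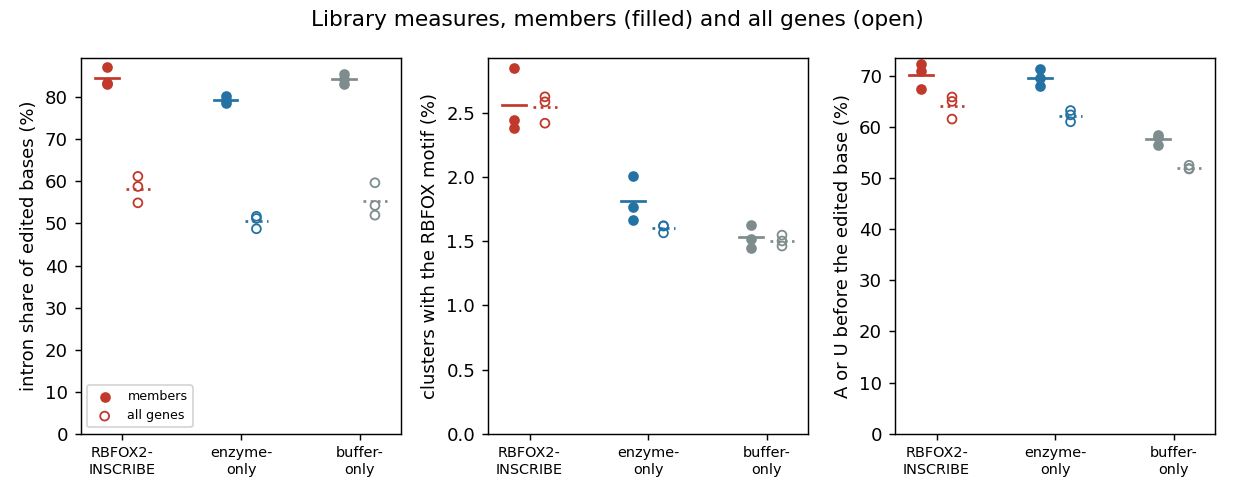
Intron share of edited bases, share of clusters with the RBFOX motif and share of edited sites with A or U before them (y axes, %), for members without Cdh15 (filled points) and all genes (open points). Points are libraries and lines are means of 3. The intron share is highest in members, the motif share is highest in RBFOX2-INSCRIBE, and the share of A or U is lowest in buffer-only.

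Confident clusters were made by the authors by intersecting the replicates of a group. After background clusters were removed, the RBFOX2-INSCRIBE list held 41 member clusters without Cdh15, in 9 genes, of 5031 in all (0.815%). The enzyme-only list held 20 of 4401 (0.454%) and the buffer-only list, from which nothing was removed, 15 of 2092 (0.717%). Pcdh9 had 24 of the 41, Pcdh7 5, Cdh12 4 and Cdh2 3, and 32 of the 41 were intronic, beside 2295 of the 5031 in the whole list. In enzyme-only 12 of the 20 were intronic, beside 1144 of the 4401. In buffer-only 10 of the 15 were intronic, beside 855 of the 2092. UGCAUG stood in 4 of the 41 (9.76%, Wilson 95% interval 3.86% to 22.5%), 3 in Pcdh9 and 1 in Pcdh7, beside 8.31% of the whole RBFOX2-INSCRIBE list. It stood in 0 of 20 in enzyme-only (2.00% of that list) and 0 of 15 in buffer-only (1.099%). Within 100 nt on either side it was found for 10 of the 41 (24.4%, beside 21.9% of the whole list), 0 of the 20 in enzyme-only (8.52%) and 0 of the 15 in buffer-only (7.46%). Of the 32 intronic clusters in the RBFOX2-INSCRIBE list, 1 lay within 1 kb of an annotated exon of its gene, and the median distance was 43508 nt. The lists without antibody were alike, with 1 of 12 and a median of 45492.5 nt in enzyme-only and 0 of 10 and 57388.5 nt in buffer-only.

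The sequence around the motif is shown for 3 of these 4 clusters, to place the edited cytidines beside the motif. They are the 2 of Pcdh9 and the 1 of Pcdh7 with the most edited bases in overlapping RBFOX2-INSCRIBE library clusters. Each run is 30 bases of the mm10 genome on the transcribed strand, 5′ to 3′, read from the RefSeq assembly, with TGCATG in capitals.
Pcdh9 intron, chr14:93705810-93705839, minus strand: ggagggaattgcTGCATGtaacattctcaa
Pcdh9 intron, chr14:93307683-93307712, minus strand: tgtgtgtgtgcgTGCATGtgcgcatgcact
Pcdh7 3′ untranslated region, chr5:58132388-58132417, plus strand: caagtggacttcTGCATGatagtacattag
In the first, the C directly before the motif (position 12, counted from 1 at the 5′ end) was edited in 2 RBFOX2-INSCRIBE libraries, the C at position 22 in 2 and the C at position 26 in 1, with no edited base in the cluster in any enzyme-only or buffer-only library. Library clusters overlapping that cluster held 5, 1 and 2 edited bases in RBFOX2-INSCRIBE. Such counts, here and for the other printed clusters, can take in edited bases outside the ends of the printed cluster. In the other Pcdh9 cluster the motif follows a repeat of T and G. Library clusters overlapping it held 1, 5 and 4 in RBFOX2-INSCRIBE, 1, 1 and 0 in enzyme-only and 0 in each buffer-only library. Within its printed bases the C at position 29 was edited in 1 RBFOX2-INSCRIBE library and those at 11 and 27 in 1 enzyme-only library each. Library clusters overlapping the Pcdh7 cluster held 7, 1 and 1 in RBFOX2-INSCRIBE, 1, 0 and 2 in enzyme-only and 0 in each buffer-only library. In the printed Pcdh7 bases the C at position 12, also next to the motif, was edited in 2 RBFOX2-INSCRIBE libraries and no other. The C at position 25 of this run was edited in 1 RBFOX2-INSCRIBE and 1 enzyme-only library, and that at position 9 in 1 enzyme-only library. Since these clusters were listed because all RBFOX2-INSCRIBE libraries had them, the counts are a description.

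The region with the most edited bases in any member was intronic in Cdh2 (chromosome 18, 16770974 to 16771198, 225 nt). It held 10, 10 and 12 edited bases in RBFOX2-INSCRIBE, 0, 0 and 2 in enzyme-only and 1, 1 and 0 in buffer-only. Each RBFOX2-INSCRIBE library thus had at least 10 and no other library over 2, at mean depths of 173 to 184 in the RBFOX2-INSCRIBE libraries and 160 to 195 in the others with a cluster there. The edited bases lay at 22 different positions in the RBFOX2-INSCRIBE libraries. The region is in the intron after exon 2 of Cdh2-201, the transcript with 16 exons, and an exon of another annotated transcript ends 198 nt upstream of it. It holds no UGCAUG or GCAUG, and the nearest UGCAUG on the strand is 27 nt away. Outside this region Cdh2 had 106, 129 and 98 edited bases in RBFOX2-INSCRIBE, 86, 102 and 95 in enzyme-only and 94, 65 and 53 in buffer-only. The region was chosen after its values were seen, by its total over the 9 libraries, and has no test.

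Most positions did not recur. Joined across libraries, the member clusters without Cdh15 formed 9466 regions, of which 7141 (75.4%) were found in 1 library, 1459 in 2 and 495 in 3. Only 2 regions, in exons of Pcdh8 and Pcdh19, were found in all 9 libraries. All 3 RBFOX2-INSCRIBE libraries and no other had 10 regions, all 3 enzyme-only libraries and no other 5, and all 3 buffer-only libraries and no other 2. Regions in all 3 libraries of a group, whether or not in others, numbered 60, 41 and 29 in that order. Member clusters a library also fell in this order of groups, from 1472 to 1890 to 1357 to 1593 and 1106 to 1519. The part of cluster number in these counts was not tested, and the same counts over all genes are not given here. The Pcdh8 exon region held 5, 3 and 2 edited bases in RBFOX2-INSCRIBE, 1, 2 and 1 in enzyme-only and 1, 1 and 2 in buffer-only. The Pcdh19 exon region held 1 in each RBFOX2-INSCRIBE library, 2, 2 and 5 in enzyme-only and 1, 1 and 2 in buffer-only.

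The partners of these proteins were also mostly uncalled. Of 22 cadherin partners (catenins and other proteins of the adherens junction), 19 were tested and 1 was called lower in RBFOX2-INSCRIBE against enzyme-only (beside 0.221% of all genes), 0 in enzyme-only against buffer-only and 1 lower in RBFOX2-INSCRIBE against buffer-only (beside 0.305% of all genes). Both calls were Jup (plakoglobin, which replaces beta-catenin in junctions), with 6, 7 and 6 edited bases in RBFOX2-INSCRIBE, 17, 18 and 14 in enzyme-only and 16, 11 and 11 in buffer-only. Jup averaged 20.5 CPM in RBFOX2-INSCRIBE and 63.1 CPM in enzyme-only, with a log2 change of -1.61 ± 0.42 (adjusted p = 0.0265). The call ended when any RBFOX2-INSCRIBE library or either of enzyme-only libraries 1 and 2 was left out (adjusted p = 0.0625 to 0.120), and with covered bases as offset the log2 change was 0.13 (adjusted p = 0.964). The call against buffer-only (log2 change -1.56 ± 0.44, adjusted p = 0.0428) ended when any of the 6 libraries was left out (adjusted p = 0.0852 to 0.157). It also ended with clusters counted, a block for replicate number, no filter on low counts or only the compared groups fitted (edgeR adjusted p = 0.0507 to 0.0784). DESeq2's Wald test gave Jup no adjusted p against enzyme-only and an adjusted p of 0.331 against buffer-only. Ctnna2, the neuronal alpha-catenin, averaged 1313 CPM in RBFOX2-INSCRIBE and 1176 CPM in enzyme-only (log2 change 0.16 ± 0.12, adjusted p = 0.606). Ctnnd2 (delta-catenin) averaged 1502 CPM in RBFOX2-INSCRIBE and 1255 CPM in enzyme-only (0.26 ± 0.11, adjusted p = 0.307), and Ctnnb1 (beta-catenin) 101 CPM in RBFOX2-INSCRIBE and 86.6 CPM in enzyme-only (0.21 ± 0.29, adjusted p = 0.802). Of 13 related large cadherins 9 were tested, of 7 protocadherin partners all 7, and edgeR called none of these 16 in any of the 3 comparisons.

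Markers showed brain tissue in every group. Pcp2 and Gabra6 of the cerebellum and Ttr and Folr1 of the choroid plexus were absent from all labels. The other 2 cerebellar markers, Calb1 and Cbln1, had clusters, with mean sums of 43.4 CPM in RBFOX2-INSCRIBE, 43.8 CPM in enzyme-only and 35.0 CPM in buffer-only. Kl of the choroid plexus also had clusters, at means of 1.01, 1.32 and 1.82 CPM in the same order. Summed over 7 striatal markers the level was 1631 to 2653 CPM in RBFOX2-INSCRIBE, 1158 to 1425 CPM in enzyme-only and 1072 to 1385 CPM in buffer-only, and over 5 oligodendrocyte markers 350 to 491 CPM in RBFOX2-INSCRIBE, 600 to 626 CPM in enzyme-only and 466 to 599 CPM in buffer-only. Excitatory neuron markers (703 to 782 CPM in RBFOX2-INSCRIBE, 810 to 841 CPM in enzyme-only) and microglial markers (100 to 122 and 123 to 214 CPM) also did not overlap between these groups. Among the markers, edgeR called Pde10a of the striatum higher in RBFOX2-INSCRIBE against enzyme-only (log2 change 0.78), beside 1.67% of all genes called. Against buffer-only it called Pde10a, Rgs9, Snap25, Map2 and Slc1a2 higher, beside 1.75% of all genes called. The part of slice position and cell make-up in the members' values was not tested.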

How the data were processed

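The 9 brain libraries were used, and the HEK293XT libraries of the series were not. The authors aligned the reads to mm10 with STAR 2.5.2, called C-to-U sites with SAILOR and edit clusters with FLARE, and intersected replicates into confident lists. The deposited cluster tables give counts of edited bases, edited reads and covered target bases, the edit fraction, the read depth as a signal and a score per cluster. Other deposited values are the edited and covering reads of each site. No deposited value is normalised, and 0 columns were left unused.

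Edited bases and clusters were summed per gene symbol in the cluster label and library, by exon and intron label. Sites kept had a score above 0.5 and a fraction below 0.8, as in the study's methods. Counts were tested with edgeR 4.0.16 (R 4.3.3; TMM, filterByExpr, quasi-likelihood, 1 fit of the 9 libraries), with DESeq2 1.42.0 as an alternative; the fit was tested on simulated counts. SE is the log2 change over the square root of F. Library measures were compared by exact two-sided permutation. Alternatives were other scalings, filters, tests, count units and cluster sets, a replicate block, each library left out, and the measures without Pcdh9 or Cdh15. The members and gene lists were chosen with earlier results of these data known. Named were the 20 tested members with the most edited bases, any called member and the 3 lowest, and for intron share the 3 highest and lowest. Some genes are named for their place in a comparison or family. The Cdh2 region and the shared Cdh15 label were noted after seeing the values.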

Additional observations from a re-analysis of the deposited data

How the results depend on the processing

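None of the members was called in any of the 3 comparisons under any alternative fitted, with the smallest adjusted p at 0.066 (Cdh12, enzyme-only against buffer-only, clusters assigned by position). Counts of called genes over the whole table moved more. RBFOX2-INSCRIBE against enzyme-only called 159 genes in the main setting, 97 with clusters counted in place of edited bases, 3 with covered bases as offset, 26 with clusters of a score of at least 0.99, 73 with clusters assigned by position and 57 with DESeq2's Wald test, and 66 to 153 with 1 library left out. Enzyme-only against buffer-only called 32 in the main setting, 0 with clusters counted (720 at an unadjusted p under 0.05), 0 with the offset (1336 at an unadjusted p under 0.05), 9 at a score of at least 0.99, 52 with DESeq2, 20 with the replicate block and 13 to 37 with 1 library left out. RBFOX2-INSCRIBE against buffer-only called 166 in the main setting, 58 with clusters counted, 0 with the offset (940 at an unadjusted p under 0.05), 47 at a score of at least 0.99, 53 with DESeq2 and 76 to 199 with 1 library left out. Covered bases as offset moved the median log2 change of all genes to 0.19 in enzyme-only against buffer-only and 0.15 in RBFOX2-INSCRIBE against buffer-only, and clusters of a score of at least 0.99 moved it to 0.13 in RBFOX2-INSCRIBE against buffer-only. With the offset, the log2 change of Jup was 0.13 in RBFOX2-INSCRIBE against enzyme-only and 0.45 in RBFOX2-INSCRIBE against buffer-only. The cause of these shifts was not tested.

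Some differences changed sign. All values in this paragraph keep the label Cdh15, while most measures above leave it out. Without Pcdh9, the difference in the members' share of all edited bases was 0.0230 percentage points for RBFOX2-INSCRIBE minus enzyme-only and -0.0147 for enzyme-only minus buffer-only. At a score of at least 0.99, RBFOX2-INSCRIBE minus buffer-only was -2.36 for the intron share, and enzyme-only minus buffer-only was -0.00683 for the edit fraction, which had no overlap in the main setting, and -0.213 for the UGCAUG share. With 1 library left out, RBFOX2-INSCRIBE minus enzyme-only ranged from -0.0402 to 0.0156 for the members' share, from -0.0109 to 0.0224 for the edit fraction and from -0.525 to 1.97 for the base before the C (A or U), and RBFOX2-INSCRIBE minus buffer-only ranged from -0.781 to 1.13 for the intron share.

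With the replicate number as a block, 124, 20 and 130 genes were called in the 3 comparisons in the order above, and 0 members. Correlations of same-numbered libraries lay between -0.0770 and 0.0863, so the numbers were not taken to pair the slices. Score of at least 0.99, assignment by position and leaving out Cdh15 were chosen after seeing the data, the first in place of a stricter adjusted p, which was not run because the cluster tables used hold none. Edited reads at filtered sites gave the main values. Most member clusters rest on 1 edited base, so depth limits every single-cluster statement.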
